A study of Mus musculus with 15 samples.

Results

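The CD209 genes encode C-type lectins of the DC-SIGN family, and the mouse genome carries 7 of them that were examined here: Cd209a, Cd209b, Cd209c, Cd209d, Cd209e, Cd209f, and Cd209g. They were chosen by symbol, after their levels in these same libraries were known, and each symbol matched 1 gene among the 19456 in the counts. All 7 passed the low-count filter that left 15802 genes for testing. Because the levels in the 4 populations were in view when the genes were chosen, the values of the 7 genes are given as a description, without tests. RNA was sequenced in bulk from 15 libraries of adult male C57BL/6 wild-type mice, all untreated as far as the labels say. Blood gave 3 libraries of Ly6Chi monocytes, and the small intestine gave 4 libraries for each of 3 macrophage subsets, named Tim-4-CD4- where both proteins were lacking, Tim-4-CD4+ where CD4 was the sole marker present, and Tim-4+CD4+ where a cell bore both. Where 3 values stand in a row below, they follow this order of the subsets. The CD4 comparison sets the subset with CD4 alone against that without either, the Tim-4 comparison sets the subset with both against that with CD4 alone, and the outer comparison sets the subset with both against that without either. The 3 comparisons share libraries and are not independent. Each library came from cells pooled from 3 mice, or from 4 mice for monocyte replicate 2, so that individual mice cannot be read. The methods count 4 sorts of gut macrophages and 3 of monocytes, so libraries of different subsets may come from the same sort and mice, and which of them do is not given in the sources used here. The macrophages were sorted as lineage-negative CD45+CD11b+ cells with CD64 and MHC class II, with Ly6C in the lineage channel and with no gate on CD11c.

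Lectins of this family are type II membrane proteins whose C-terminal domain binds sugars with the help of calcium. They recognize mannose and fucose on bacteria, fungi, viruses, and host glycoproteins, and many of them pass what they bind into the endocytic pathway. Human DC-SIGN is a receptor of dendritic cells and some tissue macrophages. In mice the family has expanded by gene duplication, and the best studied paralog, Cd209b, encodes SIGNR1, which captures polysaccharides on marginal zone and lymph node macrophages.

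All 7 genes lay within chromosome 8 (GENCODE M21 on GRCm38.p6), from Cd209a at chr8:3743397-3748984 to Cd209g at chr8:4134098-4137707. Along the chromosome the order was Cd209a, Cd209e, Cd209d, Cd209b, Cd209c, Cd209f, and Cd209g, with 6 genes on the minus strand and Cd209g on the plus strand. Cd209f, at chr8:4102787-4105835, and Cd209g thus adjoined within the family and were transcribed away from each other. No annotated gene overlapped any of the 7.

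Cd209f and Cd209g, both highest in Tim-4+CD4+ macrophages, also stood apart by sequence. Their promoters are shown for this reason, as windows of 300 bases around the transcript start given by RefSeq for GRCm38.p6, with every exact run of at least 12 bases that the pair shares in capitals. Cd209f spans chr8:4105715-4106014 on the minus strand and Cd209g spans chr8:4134486-4134785 on the plus strand. The start used by RefSeq for Cd209g lies inside the GENCODE gene, not at its edge, and the whole Cd209g window lies within that gene. The Cd209f window also reaches into its GENCODE gene, whose upstream edge is at chr8:4105835. Part of what is shown as promoter is thus annotated gene for both.
Cd209f: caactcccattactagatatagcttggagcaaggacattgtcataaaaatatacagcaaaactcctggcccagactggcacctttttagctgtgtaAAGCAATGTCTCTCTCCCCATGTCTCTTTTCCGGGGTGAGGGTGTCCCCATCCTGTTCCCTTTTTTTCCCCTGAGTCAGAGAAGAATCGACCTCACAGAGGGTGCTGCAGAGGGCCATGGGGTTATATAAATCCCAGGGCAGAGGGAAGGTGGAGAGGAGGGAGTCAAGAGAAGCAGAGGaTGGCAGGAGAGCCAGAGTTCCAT
Cd209g: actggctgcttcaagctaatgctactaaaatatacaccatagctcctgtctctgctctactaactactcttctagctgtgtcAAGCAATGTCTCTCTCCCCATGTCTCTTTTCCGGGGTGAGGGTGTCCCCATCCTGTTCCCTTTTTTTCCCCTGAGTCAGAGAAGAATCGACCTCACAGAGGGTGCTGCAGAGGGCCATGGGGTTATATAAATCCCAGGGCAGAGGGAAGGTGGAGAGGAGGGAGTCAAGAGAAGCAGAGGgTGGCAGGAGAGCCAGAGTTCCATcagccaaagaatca
The pair shared 258 of the 300 bases (86.0%) when aligned, and a single run of 180 bases was identical. This run, searched on both strands, was found in 2 of 32851 RefSeq promoter windows, those of Cd209f and Cd209g.

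The other 20 pairs of promoters shared from 47.7% to 60.7% of their bases. The most alike of them were Cd209b, the most abundant member in Tim-4+CD4+ macrophages, and Cd209d, the least variable between populations, at chr8:3926792-3927091 and chr8:3878450-3878749, both on the minus strand. They are shown for contrast, with the longest run they share, 12 bases, in capitals.
Cd209b: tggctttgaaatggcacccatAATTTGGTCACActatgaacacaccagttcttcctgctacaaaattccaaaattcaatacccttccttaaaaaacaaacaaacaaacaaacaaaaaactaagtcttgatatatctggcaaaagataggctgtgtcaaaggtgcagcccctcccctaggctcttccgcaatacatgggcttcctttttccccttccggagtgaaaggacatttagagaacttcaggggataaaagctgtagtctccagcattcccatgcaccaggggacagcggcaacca
Cd209d: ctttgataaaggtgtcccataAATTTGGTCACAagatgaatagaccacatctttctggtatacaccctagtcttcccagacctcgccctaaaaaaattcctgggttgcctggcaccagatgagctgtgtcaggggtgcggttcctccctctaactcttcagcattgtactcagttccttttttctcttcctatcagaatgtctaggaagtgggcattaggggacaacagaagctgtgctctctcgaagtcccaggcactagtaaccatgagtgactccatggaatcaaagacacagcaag
In the whole windows, the TATA box letters TATAAA were found in the promoters of Cd209a, Cd209f, and Cd209g, and in 13.6% of all promoter windows. The core of the PU.1 motif, GAGGAA, was found for Cd209d only, against 28.3% of all windows, and the MAF recognition core TGCTGAC was found for 0 of the 7 and in 4.67% of all windows. Both strands were searched and the motifs do not overlap by their letters. A match is a match of letters only, and a missing match says nothing about the factor.

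The coding sequences of Cd209f and Cd209g were identical at 89.2% of aligned bases, against 61.6% to 76.9% for the other pairs. This bears on the counts, since only uniquely mapped reads were counted. Of the distinct stretches of 65 bases (the read length) in the annotated transcripts, 25.4% for Cd209f and 14.2% for Cd209g occurred in the other of the pair. These were 566 stretches for each gene, of 2228 for Cd209f and 3980 for Cd209g. The stretches of Cd209g include those of a transcript that keeps introns, and a percent without it was not taken. No stretch of Cd209a, Cd209b, Cd209d, or Cd209e occurred in any other gene, whereas 239 of 2175 stretches of Cd209c occurred in a gene outside the family. The counts of Cd209f and Cd209g may therefore be low, since reads that fit both equally were not counted, and how far was not tested. Reads were paired, and a mate outside a shared stretch is not considered in these percents. Whether reads of either gene were counted for the other was not tested. The strand setting used for counting is not given in the sources used here.

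Levels are given as CPM, the counts of a gene relative to the library's total after TMM scaling, with means ± SD over libraries (n = 3 for monocytes and n = 4 for each subset). Libraries held between 39388763 and 151510641 counts. A count of 0 allows up to 3 counts, and such floors and intervals cover counting error only. Libraries of a population were separate sorts, so the errors describe the spread between pools. The genes for the sorting markers followed the labels. Timd4 was at 356 ± 25.2 CPM in Tim-4+CD4+ macrophages and at or below 4.47 CPM in each Tim-4- library, Cd4 was at 22.9 ± 11.2 CPM in Tim-4-CD4- macrophages against 531 ± 51.0 and 816 ± 80.9 CPM in both CD4+ subsets, and Ly6c2 was at 1092 ± 395 CPM in monocytes and at or below 3.46 CPM in each macrophage library. Ccr2, the chemokine receptor of monocytes newly arrived in tissue, was at 660 ± 106, 84.1 ± 21.6, and 8.39 ± 5.04 CPM in the subsets and at 2630 ± 341 CPM in monocytes, and it fell in each comparison of the subsets. In bulk RNA, fewer cells that express a gene and less RNA per cell cannot be told apart.

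**Figure D1:**
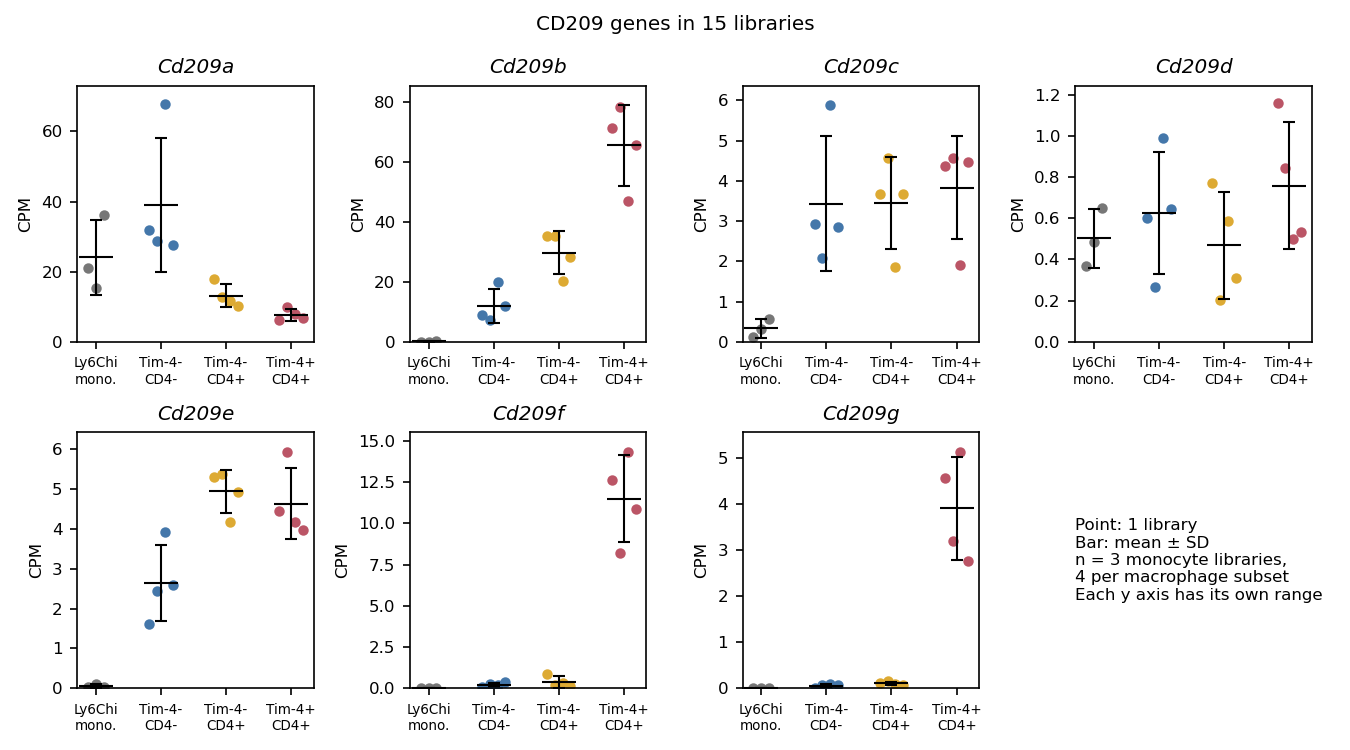
CPM of the 7 CD209 genes in each library (points) with mean ± SD (bars) for Ly6Chi monocytes (n = 3) and the 3 macrophage subsets (n = 4 each), each panel with its own linear axis from 0. Cd209a is lower in both CD4+ subsets than in Tim-4-CD4- macrophages, Cd209b steps up from subset to subset, and Cd209f and Cd209g stand above 2.7 CPM in the 4 Tim-4+CD4+ libraries and below 1 CPM in all others.

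Cd209a, the gene that carries the name DC-SIGN in mice and a marker of monocyte-derived dendritic cells, was the only member above 1 CPM in blood monocytes. It was at 20.9, 15.4, and 36.0 CPM in the 3 monocyte libraries. In Tim-4-CD4- macrophages it was at 31.8, 28.9, 67.7, and 27.6 CPM. The monocyte and Tim-4-CD4- libraries overlapped, and replicate 3 of Tim-4-CD4- macrophages stood far above the other libraries of its subset. In Tim-4-CD4+ macrophages Cd209a was at 17.8, 12.8, 11.7, and 10.2 CPM. In Tim-4+CD4+ macrophages it ranged from 6.25 to 10.1 CPM. No library of a CD4+ subset reached the lowest Tim-4-CD4- library, and both CD4+ subsets were also separated from each other.

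The log2 fold change of Cd209a was -1.57 ± 0.30 (SE, edgeR) in the CD4 comparison, -0.76 ± 0.30 in the Tim-4 comparison, and -2.33 ± 0.31 in the outer comparison. Without Tim-4-CD4- replicate 3 the CD4 comparison gave -1.17 and the outer comparison -1.92. Cd209a was also highest of its subset in Tim-4-CD4+ replicate 1 (17.8 CPM) and Tim-4+CD4+ replicate 2 (10.1 CPM), which remained in these fits. The deviations of both libraries correlated with those of Tim-4-CD4- replicate 3 at 0.136 and 0.135. These pairs were picked from the data for their correlation, so a link between the libraries cannot be read from it. Relative to monocytes, Cd209a was higher by 0.70 ± 0.32 in Tim-4-CD4- macrophages, or by 0.31 without that replicate, and was at -1.64 ± 0.32 in Tim-4+CD4+ macrophages.

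Several markers of dendritic cells differed in the same direction as Cd209a. Flt3, the growth factor receptor of dendritic cells and their progenitors, was at 29.6 ± 6.71 CPM in monocytes, above its mean in each subset. It was at 17.9 CPM in Tim-4-CD4- replicate 3 and from 4.41 to 7.57 CPM in the other libraries of the subset. Of 11 dendritic cell markers 7 were highest of that subset in replicate 3. The same replicate was highest of its subset for 6 of the 7 CD209 genes. Summed over the 11 markers, the level was 185 to 242 CPM in monocytes and 247 to 368, 219 to 263, and 207 to 276 CPM in the subsets. The largest parts in the subsets were Dpp4 (103 ± 16.6, 104 ± 17.6, and 93.0 ± 12.5 CPM) and Batf3 (75.0 ± 2.88, 69.3 ± 8.93, and 80.1 ± 20.9 CPM). Of the 11 markers 3 fell in the CD4 comparison (Flt3, Itgae, and Kit) and 5 fell in the outer comparison (those with Irf4 and Ccr7). In the Tim-4 comparison edgeR called 0, 1 was lower at an unadjusted p under 0.05, and DESeq2 called 1 lower. Zbtb46, Xcr1, Batf3, Clec9a, Dpp4, and Cd24a were not called by edgeR in any comparison of the subsets. Their log2 fold changes in the outer comparison were -0.40, -0.11, 0.10, -0.09, -0.15, and -0.84. Irf4, like Flt3, was highest in monocytes (98.1 ± 19.0 CPM), whereas Itgae, Kit, and Ccr7 were lowest there (0.0295 ± 0.0261, 0.0445 ± 0.0209, and 0.0511 ± 0.0729 CPM). In the outer comparison Flt3 and Kit fell with log2 fold changes of -3.90 ± 0.47 (edgeR adjusted p = 1.2e-05) and -2.42 ± 0.33 (adjusted p = 4.0e-05). Ccr7, the receptor that guides dendritic cells to lymph nodes, was at 7.18 ± 4.84 CPM in Tim-4-CD4- macrophages and fell to 1.85 ± 0.716 CPM in the outer comparison (log2 fold change -1.95 ± 0.50, adjusted p = 0.0097). Without Tim-4-CD4- replicate 3, an alternative chosen after seeing the data, 2 markers fell in the CD4 comparison (Flt3 and Kit), 3 fell in the outer comparison (Flt3, Itgae, and Kit), and 1 fell in the Tim-4 comparison (Kit), so that Ccr7 lost its call. None of the 11 markers was at 0 throughout a population, and the part of dendritic cells in the level of Cd209a was not tested.

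Cd209b, which encodes SIGNR1, a receptor for bacterial capsules, dextran, and sialylated antibodies, had the opposite order among the subsets. It was at 0.0779, 0.0292, and 0.372 CPM in the monocyte libraries, from 3 to 20 counts. It was at 8.78, 7.22, 20.1, and 11.8 CPM in Tim-4-CD4- macrophages. It was at 35.1, 35.5, 20.1, and 28.4 CPM in Tim-4-CD4+ macrophages. The highest Tim-4-CD4- library and the lowest Tim-4-CD4+ library came within 0.1 CPM of each other, without overlap. In Tim-4+CD4+ macrophages Cd209b was at 47.0 to 78.2 CPM, above every library of the other populations.

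The log2 fold change of Cd209b was 1.32 ± 0.32 in the CD4 comparison, 1.14 ± 0.31 in the Tim-4 comparison, and 2.46 ± 0.33 in the outer comparison. Monocytes had 34 counts of the gene in all, of which 20 were in replicate 3. The log2 fold change of Tim-4-CD4- macrophages against monocytes was 6.62 ± 0.55, and 7.70 without that replicate. Endothelial cells of the liver and lymph node are known to bear lectins related to DC-SIGN. The summed level of 9 endothelial markers was 110 to 130, 181 to 222, and 313 to 365 CPM in the subsets, against 11.8 to 21.1 CPM in monocytes. Most of that sum was Pecam1, the adhesion molecule CD31, which leukocytes also carry and which was at 104 ± 1.77, 185 ± 18.5, and 305 ± 24.4 CPM. Cdh5, the junctional cadherin that defines endothelium, was at 4.58 ± 1.35, 3.33 ± 1.16, and 5.24 ± 1.00 CPM, overlapping between the 3 subsets. Stab2, a scavenger receptor of sinusoidal endothelium, rose in the outer comparison, from 0.745 ± 0.378 to 10.7 ± 4.35 CPM (log2 fold change 3.82 ± 0.40, edgeR adjusted p = 7.0e-06). Flt4 and Prox1, a receptor and a transcription factor of lymphatic endothelium, rose in the same comparison, Flt4 from 1.82 ± 0.691 to 4.64 ± 0.80 CPM (adjusted p = 0.026) and Prox1 from 0.216 ± 0.125 to 1.74 ± 0.799 CPM (adjusted p = 0.00062). Cdh5, Kdr, Tek, Emcn, and Clec14a were not called by edgeR in any comparison of the subsets. Their log2 fold changes in the CD4 comparison were -0.45, -1.03, -0.71, -0.60, and -0.46. In the outer comparison they were 0.19, -0.23, 0.03, 0.12, and 0.53, and in the Tim-4 comparison 0.64, 0.80, 0.74, 0.73, and 0.99. Of the 9 markers 2, 4, and 2 rose in the CD4, outer, and Tim-4 comparisons and edgeR and DESeq2 each called 0 lower, with 1, 0, and 0 lower at an unadjusted p under 0.05 by edgeR. With single libraries left out, the rises numbered 1 to 2, 3 to 4, and 2 to 3. The calls of Stab2 in the CD4 comparison and of Flt4 in the outer comparison were lost without Tim-4-CD4- replicate 3, and not only without it. The part of endothelial cells in the level of Cd209b was not tested. Summed markers of B cells were at 36.3 to 46.1, 41.4 to 48.5, and 35.9 to 74.6 CPM, of T cells at 2.95 to 6.52, 7.68 to 11.7, and 5.62 to 8.32 CPM, and of epithelium at 8.20 to 16.2, 13.7 to 16.9, and 13.6 to 22.5 CPM in the subsets.

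Cd209f and Cd209g, the paralogs also named SIGNR8 and SIGNR7, were highest in Tim-4+CD4+ macrophages by a wide margin. Cd209f was at 8.19 to 14.3 CPM in the 4 Tim-4+CD4+ libraries, from 655 to 1296 counts. It was at 0.110, 0.235, 0.172, and 0.362 CPM in Tim-4-CD4- macrophages. It was at 0.879, 0.202, 0.320, and 0.128 CPM in Tim-4-CD4+ macrophages. Monocytes had 1 count of Cd209f over 3 libraries. The Tim-4+CD4+ libraries were all above 8 CPM and all others under 1 CPM, and the Tim-4- subsets overlapped.

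Cd209g was at 2.75 to 5.13 CPM in Tim-4+CD4+ macrophages, from 166 to 468 counts. It had from 0 to 4 counts per library in Tim-4-CD4- macrophages and from 6 to 12 counts in Tim-4-CD4+ macrophages. None was counted in monocytes, where the floor of 3 counts per library puts the Tim-4+CD4+ mean at least 110-fold higher. Each Tim-4-CD4+ library was above the floor of 3 counts, whereas 2 of the 4 Tim-4-CD4- libraries were at or below it.

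In the Tim-4 comparison the log2 fold change was 4.96 ± 0.49 for Cd209f and 5.23 ± 0.47 for Cd209g, or 30.1-fold and 36.1-fold in mean CPM. In the outer comparison it was 5.73 ± 0.52 and 6.09 ± 0.51. In the CD4 comparison, where the libraries of both genes overlapped, it was 0.86 ± 0.57 for Cd209g and 0.77 ± 0.53 for Cd209f, and -0.02 without Tim-4-CD4+ replicate 1, the library with the most Cd209f of all 8 Tim-4- libraries. Without that library the Tim-4 comparison gave 5.77 for Cd209f. Within Tim-4+CD4+ libraries the CPM of Cd209f was 2.57 to 3.95 times that of Cd209g. This ratio compares genes of unequal length. Per kb of the longest protein-coding transcript, Cd209f was at 9.70 ± 2.22 and Cd209g at 3.34 ± 0.958 CPM.

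**Figure D2:**
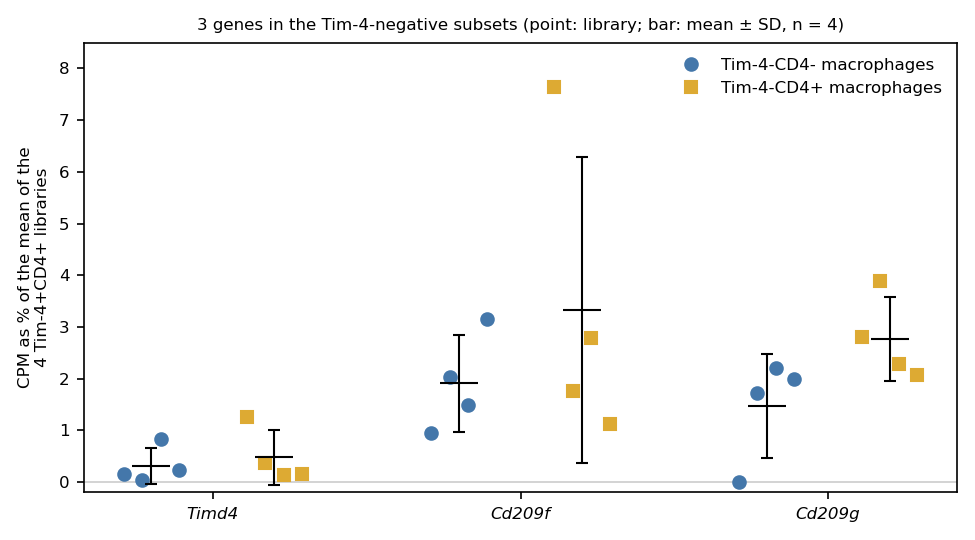
CPM of Timd4, Cd209f, and Cd209g in the 8 Tim-4- libraries as a percent of the mean of the Tim-4+CD4+ libraries, with mean ± SD (n = 4 per subset). Cd209f lies between 0.952% and 7.65% and Timd4 between 0.0424% and 1.26%, and Tim-4-CD4+ replicate 1 is the highest library for both.

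Timd4 encodes the protein used for sorting, and its level in the Tim-4- libraries is set beside the low counts of Cd209f and Cd209g there. Those libraries were sorted for lack of Tim-4, so their low Timd4 is no independent measure of Tim-4+ cells. In the 8 Tim-4- libraries Timd4 stood at 0.0424% to 1.26% of its Tim-4+CD4+ mean, with a median of 0.192%. Cd209f stood at 0.952% to 7.65%, with a median of 1.90%, and Cd209g at 0% to 3.89%, with a median of 2.14%. The percent of Cd209f was above that of Timd4 in 8 of 8 libraries, and that of Cd209g in 7 of 8, the exception being Tim-4-CD4- replicate 1, which had 0 counts of Cd209g. Tim-4-CD4+ replicate 1 was highest for both Timd4, at 4.47 CPM, and Cd209f, with 48 counts. The percents rest on 6 to 48 counts of Cd209f and 0 to 12 counts of Cd209g per library. The part of Tim-4+ cells in the Cd209f and Cd209g of the Tim-4- libraries was not tested.

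Cd209e, Cd209c, and Cd209d, which encode SIGNR4, SIGNR2, and SIGNR3, were low. SIGNR3 is a receptor that binds mycobacterial and fungal sugars. Cd209e was at 1.62, 2.43, 3.92, and 2.59 CPM in Tim-4-CD4- macrophages. It was at 5.29, 5.36, 4.18, and 4.92 CPM in Tim-4-CD4+ macrophages. It was at 3.96 to 5.93 CPM in Tim-4+CD4+ macrophages. Both CD4+ subsets overlapped with each other and lay above all Tim-4-CD4- libraries, while monocytes had 17 counts in all. The log2 fold change of Cd209e was 0.90 ± 0.27 in the CD4 comparison, 0.81 ± 0.27 in the outer comparison, and -0.09 ± 0.27 in the Tim-4 comparison.

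Cd209c was at 3.44 ± 1.67, 3.45 ± 1.14, and 3.83 ± 1.28 CPM in the subsets and at 0.336 ± 0.229 CPM in monocytes. Its libraries overlapped between all macrophage subsets, where the log2 fold changes ran from 0.00 ± 0.41 to 0.16 ± 0.41, and not between any subset and monocytes, where they were 3.44 or more. Cd209d was between 0.202 and 1.16 CPM in all 15 libraries, its libraries overlapped in all 6 comparisons, and its largest log2 fold change between populations was 0.70 ± 0.46. The gene had 8 to 119 counts per library.

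Among the members, the numbers with an edgeR adjusted p under 0.05 were as follows, and nothing is read from them since these levels chose the genes. In the CD4 comparison 3 of 7 were called (Cd209a, Cd209b, and Cd209e), where 10.1% of all tested genes were, and the same 3 had libraries without overlap, where 19.1% did. In the outer comparison 5 of 7 were called, those 3 with Cd209f and Cd209g, against 23.1% of all genes, and 5 did not overlap, against 26.4%. In the Tim-4 comparison 2 of 7 were called (Cd209f and Cd209g), against 3.41%, while Cd209a and Cd209b also did not overlap, making 4 of 7 against 9.63%. Relative to monocytes, 5, 6, and 6 of 7 were called in the subsets, against 65.4%, 69.8%, and 70.9%, and 4, 5, and 6 did not overlap, against 67.6%, 70.1%, and 68.7%.

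To compare members with each other, CPM were divided by the length of all annotated exon bases of each gene. Summed over the 7 genes, the level per kb was 16.1 ± 7.01 CPM in monocytes and 34.3 ± 16.2, 27.6 ± 5.78, and 48.0 ± 6.57 CPM in the subsets. Cd209a made up 94.7 ± 1.78% of it in monocytes and 71.5 ± 4.37%, 30.2 ± 4.64%, and 10.2 ± 2.21% in the subsets. Cd209b made up 0.378 ± 0.316% in monocytes and 16.6 ± 3.03%, 50.8 ± 4.48%, and 64.0 ± 5.34% in the subsets. The leading member was Cd209a in monocytes and Tim-4-CD4- macrophages and Cd209b in both CD4+ subsets.

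In Tim-4+CD4+ macrophages the order per kb was Cd209b (31.0 ± 6.34 CPM), Cd209f (5.78 ± 1.32), Cd209a (4.88 ± 1.07), Cd209e (2.57 ± 0.494), Cd209c (1.92 ± 0.642), Cd209g (1.08 ± 0.310), and Cd209d (0.824 ± 0.336). Cd209f and Cd209a differed by less than the sum of their SDs, as did each adjoining pair from Cd209e to Cd209d. In Tim-4-CD4- macrophages the order was Cd209a (24.6 ± 12.2), Cd209b (5.66 ± 2.71), Cd209c (1.72 ± 0.839), Cd209e (1.47 ± 0.529), Cd209d (0.683 ± 0.322), Cd209f (0.111 ± 0.0543), and Cd209g (0.0160 ± 0.0109), where the pairs of Cd209c with Cd209e and of Cd209e with Cd209d differed by less than the sum of their SDs. The place of Cd209g depends on length, since its 3610 exon bases include a transcript that keeps introns. With the longest protein-coding transcript (1169 bases for Cd209g) as the length, a choice made after seeing the data, it held 6.05% in place of 2.32% of the Tim-4+CD4+ sum, and Cd209f held 17.6% in place of 12.5%.

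**Figure D3:**
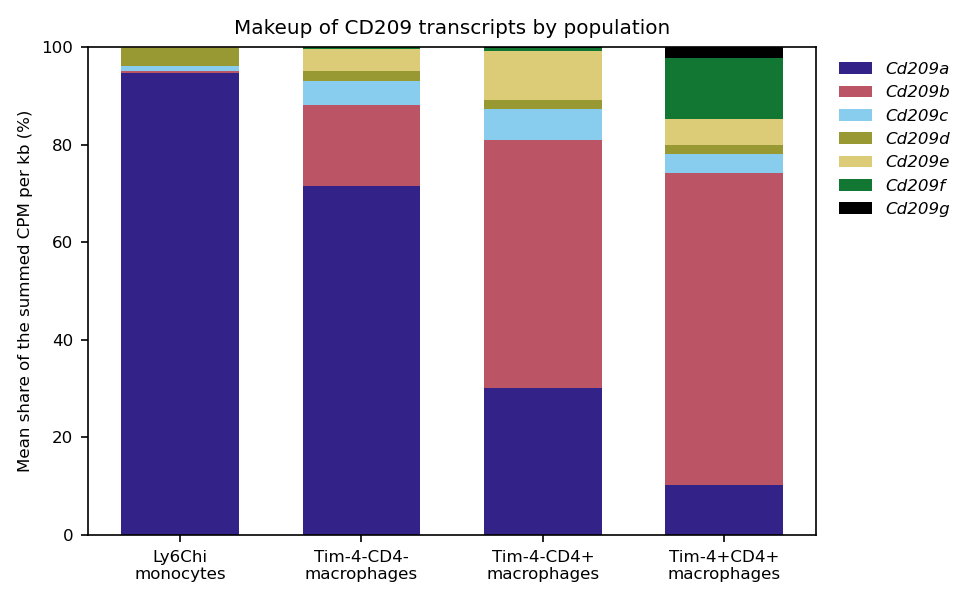
Mean share of each CD209 gene in the summed CPM per kb of exon of the 7 genes (y axis, percent) for the 4 populations. Cd209a takes 94.7% in monocytes and 10.2% in Tim-4+CD4+ macrophages, where Cd209b takes 64.0% and Cd209f takes 12.5%.

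The genes around the cluster were tested to see how far its neighbors differed as well. These were the 31 other annotated genes from the 10th before Cd209a to the 10th after Cd209g, of which 17 were in the counts and 13 were tested. In the CD4 comparison 0 rose and 2 fell (Mcemp1 and Fcor), and the median log2 fold change was -0.17 against 0.00 for all genes. In the outer comparison 1 rose (Tgfbr3l) and 3 fell (Mcemp1, Fcor, and Clec4g), with a median of -0.10. In the Tim-4 comparison 0 rose and 1 fell (Mcemp1), with a median of 0.03. At an unadjusted p under 0.05 the neighbors that were higher numbered 0, 2, and 1 in the CD4, outer, and Tim-4 comparisons, and DESeq2 called 0, 1, and 0. Fcor, Clec4g, and Tgfbr3l, all under 1 CPM in the macrophage subsets, were named after their values were seen, and Tgfbr3l (adjusted p = 0.0498) lost its call in several alternatives.

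Mcemp1, a membrane protein of mast cells and monocytes, was the nearest called neighbor above 1 CPM, on the side of Cd209a. It was at 147 ± 32.4 CPM in monocytes and at 3.47 ± 0.661, 0.787 ± 0.181, and 0.273 ± 0.0414 CPM in the subsets. It fell with log2 fold changes of -2.18 ± 0.19 in the CD4 comparison (edgeR adjusted p = 1.4e-06) and -1.49 ± 0.23 in the Tim-4 comparison (adjusted p = 0.00089). Evi5l, the nearest tested gene beyond Cd209g, was at 18.1 ± 1.37, 18.8 ± 0.413, and 19.0 ± 1.08 CPM in the subsets. Its log2 fold change in the Tim-4 comparison was 0.02 ± 0.09 (adjusted p = 0.96), beside 5.23 ± 0.47 for Cd209g. An antisense gene overlaps Evi5l, and reads of both cannot be told apart where strand was not used. Clec4g, a lectin of sinusoidal endothelium and the nearest counted gene on the other side, was at 0.186 ± 0.149 CPM in Tim-4-CD4- macrophages and had no counts in Tim-4+CD4+ macrophages.

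**Figure D4:**
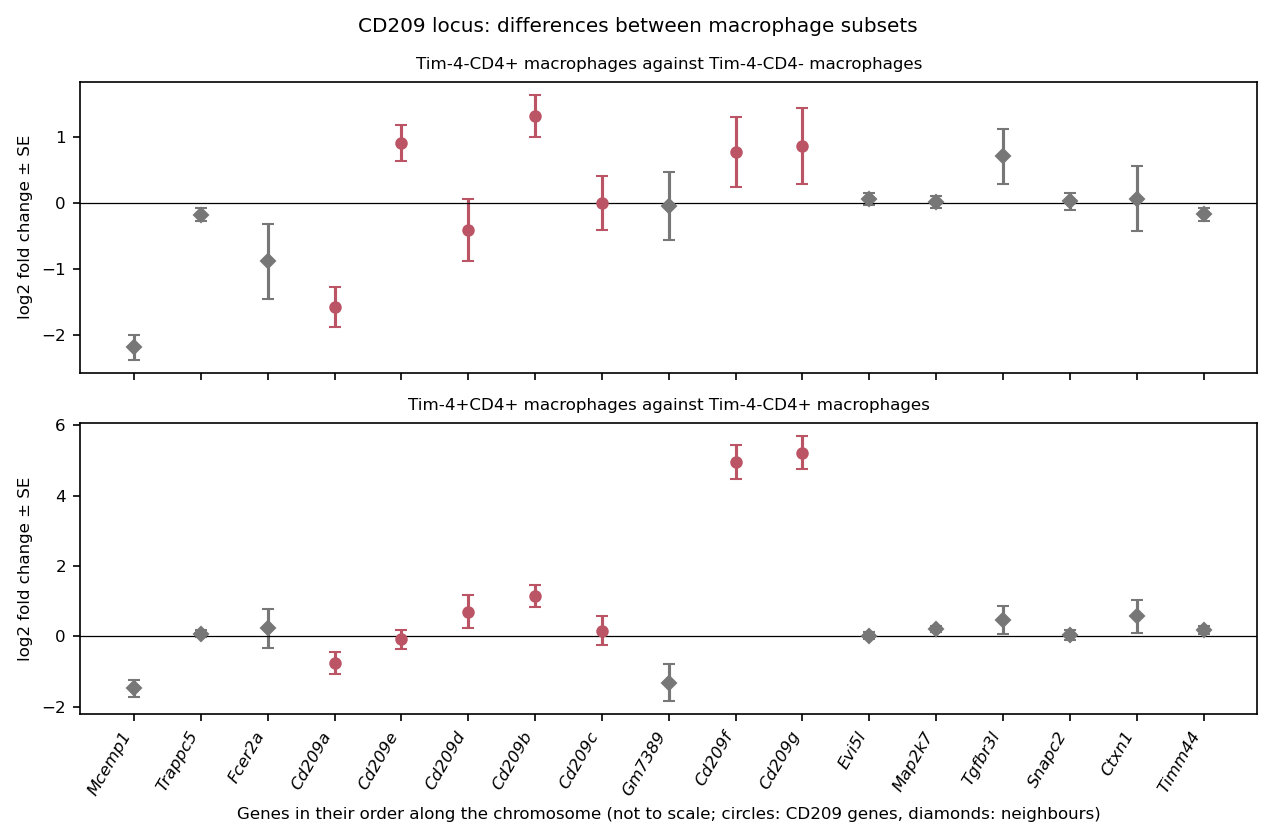
Log2 fold change ± SE (edgeR) of the 7 CD209 genes (circles) and of the 10 tested neighbors with a mean of at least 0.1 CPM in every macrophage subset (diamonds), in their order along the chromosome and not to scale. In the lower panel Cd209f and Cd209g stand at 4.96 and 5.23, and Evi5l beside them at 0.02.

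The other C-type lectin receptors were counted to set the family beside its relatives. Of 32 listed genes 29 were tested, among them Clec4g and Fcer2a, which are also neighbors of the cluster. In the CD4 comparison 2 rose and 8 fell, with a median log2 fold change of -0.15. In the outer comparison 3 rose and 13 fell, with a median of -0.33 against 0.00 for all genes. In the Tim-4 comparison 0 rose and 3 fell, with a median of -0.14, while 1 was higher and 8 were lower at an unadjusted p under 0.05, and DESeq2 called 1 higher and 5 lower. Clec4e (Mincle, a receptor for mycobacterial glycolipid) fell from 29.3 ± 8.64 to 4.25 ± 1.09 and 2.25 ± 0.652 CPM (log2 fold changes -2.78 ± 0.24, edgeR adjusted p = 1.6e-06, in the CD4 comparison and -0.93 ± 0.24, adjusted p = 0.042, in the Tim-4 comparison). Clec12a, an inhibitory receptor for uric acid crystals, fell from 74.8 ± 14.2 to 16.7 ± 1.32 and 9.65 ± 2.90 CPM. Olr1, a receptor for oxidized lipoprotein, and Ly75 (DEC-205, an endocytic receptor of dendritic cells) also fell in the outer comparison, with log2 fold changes of -3.53 ± 0.37 and -1.92 ± 0.52. Clec7a (Dectin-1) fell in the Tim-4 comparison with a log2 fold change of -0.40 ± 0.08 (adjusted p = 0.010). Without Tim-4-CD4+ replicate 2 or 4, or without Tim-4+CD4+ replicate 4, 1 of the 3 falls in the Tim-4 comparison was called.

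The 3 relatives that rose in the outer comparison were Clec1b (CLEC-2, a receptor for podoplanin), Clec4n (Dectin-2, a receptor for fungal mannose), and Colec12 (a scavenger receptor). Clec1b rose from 62.9 ± 7.54 to 154 ± 24.5 CPM in Tim-4-CD4+ macrophages and was at 170 ± 22.5 CPM in Tim-4+CD4+ macrophages. This is the order of Cd209e, with both CD4+ subsets above the remaining one.

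DC-SIGN signals through a scaffold held by Lsp1 and through kinases of the Src family and their partners. Of 16 such genes 1 rose and 1 fell in the CD4 comparison, 2 rose and 2 fell in the outer comparison, and 1 rose in the Tim-4 comparison, with medians of -0.01, 0.00, and -0.02. Lsp1 itself fell from 98.4 ± 41.8 to 13.3 ± 2.20 and 9.07 ± 1.56 CPM (log2 fold change -3.44 ± 0.23 in the outer comparison, edgeR adjusted p = 2.1e-08), the same order of means as Cd209a. Fyn, a Src family kinase, rose from 22.2 ± 3.94 to 35.1 ± 2.69 and 56.6 ± 6.30 CPM (1.35 ± 0.12 in the outer comparison, adjusted p = 5.2e-07), the same order of means as Cd209b. Il10, an output of DC-SIGN signaling, rose by 0.53 ± 0.15 (adjusted p = 0.014) and Pak1 fell by 0.35 (adjusted p = 0.0052) on the log2 scale in the outer comparison. The study measured IL-10 protein released in overnight culture and found it unchanged between the subsets. The rises in the outer comparison numbered 1 without Tim-4-CD4- replicate 3.

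On the side of the ligands, 20 genes that make or trim mannose and fucose on glycans or carry them to the receptor were tested. In the CD4 comparison 1 rose (Man1c1) and 1 fell (Icam2), and in the outer comparison 2 rose and 4 fell, with medians of -0.04 and -0.03. Icam2, an adhesion molecule that DC-SIGN binds, fell from 7.43 ± 0.998 CPM in Tim-4-CD4- macrophages with log2 fold changes of -0.66 ± 0.15 in the CD4 and -1.04 ± 0.15 in the outer comparison (edgeR adjusted p = 0.0093 and 8.6e-05). Man1c1, a Golgi mannosidase, rose in the outer comparison from 158 ± 8.76 to 231 ± 5.50 CPM. Fut10, a fucosyltransferase, rose by 0.80 ± 0.23 (adjusted p = 0.018), and Fut7, the transferase of selectin ligands, was at 0.259 ± 0.126 CPM in Tim-4-CD4- macrophages and fell with a log2 fold change of -3.42 ± 0.80 (adjusted p = 0.0048). In the Tim-4 comparison edgeR called 0 of the 20, DESeq2 called 1 higher, and at an unadjusted p under 0.05 1 was higher and 3 were lower, with a median of -0.10.

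A list of 16 genes known from macrophages that bear CD209 lectins elsewhere, such as Kupffer cells and perivascular macrophages, contains Timd4, C2, Xlr, and Fcna, which the study picked out on these samples, so it is not independent evidence of direction. Of 15 tested, 3 rose and 0 fell in the CD4 comparison, 11 rose and 0 fell in the outer comparison, and 7 rose and 0 fell in the Tim-4 comparison, by edgeR. Falls numbered 0 in each also at an unadjusted p under 0.05 and by DESeq2. The rises in the CD4 comparison numbered 1 to 4 when single libraries were left out. The medians of their log2 fold changes were 0.45, 1.38, and 1.25, against 0.00 for all genes. C2, a complement component, was at 1.49 ± 0.885, 3.58 ± 1.29, and 38.8 ± 11.9 CPM in the subsets, and Fcna, a ficolin that binds sugars on bacteria, at 2.30 ± 0.745, 2.76 ± 1.07, and 22.6 ± 6.75 CPM. Cd163, the hemoglobin scavenger receptor, was at 137 ± 25.8, 191 ± 31.3, and 552 ± 169 CPM, and Xlr at 5.84 ± 1.63, 11.9 ± 1.73, and 33.2 ± 2.89 CPM. Gas6, a ligand of receptors that clear dying cells, rose in the CD4 comparison from 133 ± 12.2 to 170 ± 17.8 CPM (log2 fold change 0.36 ± 0.11, adjusted p = 0.045). Siglec1, F13a1, Pf4, and Cbr2 had no call in the outer comparison.

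To see which genes ran most like each lectin, the 6 members with at least 1 CPM in a macrophage subset were compared with all tested genes over the 12 macrophage libraries, by the root mean square difference of log2 CPM after centering. Cd209f and Cd209g were each the nearest gene to the other, at a difference of 0.67, where Cd209f itself spread by 2.63 around its mean. The next were Edil3 (0.90), a secreted bridge between phosphatidylserine and integrins, and C2 (0.97) for Cd209f, and C2 (0.82) and Hpdl (0.84) for Cd209g. Edil3 was at 0.389 ± 0.339, 0.346 ± 0.0911, and 7.96 ± 1.41 CPM in the subsets. Reads of either gene of the pair that were counted for the other could add to their likeness, which was not tested.

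Nearest to Cd209a was Kit (0.22), the stem cell factor receptor and a dendritic cell marker of the list above, at 7.74 ± 4.24, 2.93 ± 0.309, and 1.45 ± 0.445 CPM, followed by Chn2 (0.25) and Dapk1 (0.26), a death-associated kinase. Nearest to Cd209b was Xlr (0.30), followed by Smc1b (0.32) and Phkg1 (0.34). Among the genes nearest to Cd209e were 2900026A02Rik (0.25), at 83.9 ± 9.43, 147 ± 13.5, and 145 ± 19.7 CPM, and Pcdhgb4 (0.26). For Cd209c, which itself spread by 0.52, the nearest genes were Srpx2 (0.25), Trpt1 (0.27), and Opn3 (0.29). These likenesses describe 12 libraries that share their sorting scheme. With all 15 libraries, 1 of the 3 nearest genes remained for Cd209a and Cd209f, 2 of 3 for Cd209g, and 0 of 3 for Cd209b, Cd209c, and Cd209e.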

How the data were processed

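Paired-end reads were trimmed by the authors (Trimmomatic 0.36), mapped with STAR on GRCm38.p4, and, where unique, counted per gene of GENCODE vM11 in HTSeq 0.6.1p1. The raw counts that the authors deposited are whole numbers per gene. The 15 columns of normalized values beside them were not used. Every gene had at least 16 counts in total. The strand setting is not given in the sources used here.

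Counts were analyzed with edgeR 4.0.16 in R 4.3.3: filterByExpr by population, TMM, and a single quasi-likelihood fit over 15 libraries with 6 comparisons, p-values being adjusted by the Benjamini-Hochberg method over all 15802 genes and called at 0.05. SEs were taken from the log2 fold change and its F statistic. Of 19456 gene IDs, 19421 matched GENCODE M21. Log2 CPM used a prior count of 2. Lower bounds use a floor of 3 counts, and bounds and floors cover counting error only.

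The 7 genes and all lists were chosen with earlier results of these data known. Genes named besides the members were per list and comparison up to 4 called genes, those of largest change whose mean over all libraries reached 1 CPM, the 3 nearest genes of each member, marker genes, and sorting genes, apart from Clec1b, Clec4n, Colec12, Siglec1, F13a1, Pf4, Cbr2, Evi5l, and those said to be so in the text, which were named after their values were seen. Some genes that met this rule are not reported here. Lists of B cell, T cell, and epithelial markers were read as summed levels. The alternatives were DESeq2 1.42.0, 2 other normalizations, 2 other filters, only the compared populations, a replicate block by title or description numbers, each library left out, a prior count of 0.5, all 15 libraries for likeness, and, chosen after seeing the data, another gene length and marker counts without single libraries.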

Additional observations from a re-analysis of the deposited data

Results flagged for a closer look

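Of the 21 sets of 4 libraries (7 genes in 3 macrophage subsets), 2 held a library far from the others by Dixon's criterion, and chance flags about 1 in 20 such sets. Cd209a was at 67.7 CPM in Tim-4-CD4- replicate 3, where the gap to the next library was 0.894 of the range. The dendritic cell marker Flt3 was at 17.9 CPM in the same library, and its part was not tested. Tim-4-CD4+ replicate 1 and Tim-4+CD4+ replicate 2, which were matched to that library by correlations picked from the data, were also highest of their subsets for Cd209a. Cd209c was at 1.91 CPM in Tim-4+CD4+ replicate 3, where the gap was 0.921 of the range. It was also lowest of its subset in Tim-4-CD4- replicate 2 (2.09 CPM) and Tim-4-CD4+ replicate 3 (1.85 CPM). Both were matched to Tim-4+CD4+ replicate 3 by correlations picked from the data (0.184 and 0.134), so a link between these libraries cannot be read from them.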

How the results depend on the processing

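Among 36 fitted log2 fold changes of the members, which leave out Cd209f and Cd209g against monocytes, the direction was kept in all alternatives that gave a value, except for Cd209c between subsets, Cd209d in Tim-4-CD4+ macrophages against monocytes, and Cd209f in the CD4 comparison. In 816 alternative values the fold change of a member moved by less than the spread, and in 5 by more. These arose without monocyte replicate 3, for Cd209b in the CD4+ subsets against monocytes (7.45 to 9.02 and 8.59 to 10.16 over all libraries left out), and without monocyte replicate 2, for Cd209e in the subsets against monocytes (5.04 to 6.36, 5.95 to 7.26, and 5.87 to 7.18). No value was obtained for Cd209d with a mean of at least 1 CPM required, nor for Cd209g in the CD4 comparison with only its populations fitted.

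With the longest protein-coding transcript as length, shares of the family level became 6.00% for Cd209c and 0.142% for Cd209g in Tim-4-CD4-, 0.316% for Cd209g in Tim-4-CD4+, and 56.7% for Cd209b, 4.56% for Cd209e, 17.6% for Cd209f, and 6.05% for Cd209g in Tim-4+CD4+ macrophages.

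Called genes in the Tim-4 comparison numbered 539, or 901 with DESeq2. In the CD4 comparison they numbered 1589, or 1033 (without Tim-4-CD4+ replicate 4) to 2203 with single libraries left out. DESeq2 called 1 other lectin higher and 5 lower in the Tim-4 comparison, 2 signaling partners lower in the CD4 comparison, and 1 ligand gene higher in the Tim-4 comparison, as did upper-quartile scaling and a mean of at least 1 CPM. With only the compared populations fitted, 1 other lectin and 1 ligand gene were higher in the Tim-4 comparison, 2 ligand genes were higher in the CD4 comparison, and of the neighbors 1 was lower in the CD4 comparison and 0 higher and 1 lower in the outer comparison. A mean of at least 1 CPM left 1 neighbor lower in each of these, and testing all genes left 0 higher in the outer comparison. With single libraries left out, other lectins called lower in the Tim-4 comparison numbered 1 to 4, signaling partners 1 to 2 higher and 1 to 2 lower in the CD4 and 1 to 3 higher in the outer comparison, resident macrophage genes 1 to 4 higher in the CD4 comparison, ligand genes 1 to 2 higher and 1 to 2 lower in the CD4 and 0 to 1 higher and 0 to 1 lower in the Tim-4 comparison, and neighbors 1 to 2 lower in the CD4 and 0 to 2 higher in the outer comparison. The cause was not tested.

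Most same-numbered libraries did not deviate together, so they were not treated as paired by their numbers. Their correlations were -0.123 to 0.134 by title and -0.0888 to 0.161 by description numbers, over 0.1 in 2 and 4 of 12 pairs. A matching was also read from the data itself, by picking pairs with high correlations. That these correlations exceed those of the numbered pairs was fixed by this choice, and nothing is read from it. The matching set Tim-4-CD4- replicates 1, 2, 3, and 4 with Tim-4-CD4+ replicates 4, 3, 1, and 2 (correlations of 0.219, 0.240, 0.136, and 0.161). With Tim-4+CD4+ replicates 1, 3, 2, and 4 the correlations were 0.0582 to 0.184 for Tim-4-CD4- and 0.0728 to 0.173 for Tim-4-CD4+ replicates. No fit used this matching, so the SEs and calls ignore it. Whether matched libraries shared a sort was not tested. A replicate block by title and by description gave 1292 and 1524 called genes in the CD4 comparison, against 1589 without it. The outer comparison gave 3207 and 3634 against 3656, and the Tim-4 comparison 429 and 519 against 539. Neither numbering follows the matching above throughout, so these counts cannot show what a block by that matching would give. The title block left 1 resident macrophage gene higher in the CD4 comparison, the description block gave 1 other lectin higher in the Tim-4 comparison and 1 neighbor lower in the CD4 comparison, and both gave 0 neighbors higher in the outer comparison.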
